A study of Caenorhabditis elegans with 12 samples.

Results

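The far genes of Caenorhabditis elegans encode fatty acid and retinol binding proteins, and the 8 members far-1 to far-8 were taken by gene name from a table of 46726 genes. FAR proteins are small, helix-rich carriers known from nematodes, where they bind fatty acids and retinol. Several are secreted, and those of parasitic species are released by the worm. They differ in fold from the beta-barrel fatty acid binding proteins that animals share, which in C. elegans are the lbp family. A nematode carries lipid between intestine, epidermis, muscle and germ line through its body fluid, where yolk lipoproteins are the best known carriers.

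The libraries were made from whole worms at day 7 of adulthood, grown on agar plates with E. coli OP50. There were 6 libraries of the xpf-1(tm2842) mutant, strain TG1660, and 6 of N2, the laboratory wild type, with no other allele or agent labelled in either group. XPF-1 is the nuclease subunit that cuts at bulky DNA damage in nucleotide excision repair, and the series, by its title, is about lasting DNA damage, lipid metabolism and histone acetylation. N2 replicate 6 carries the N2 title and strain but the mutant genotype label, and it was kept in N2. The labels mention triplicates and do not say which libraries came from separate cultures, so the tests measure the spread between these libraries, which may be partly technical.

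Total counts were 18407182 to 22817135 over the 6 xpf-1 libraries and 18667885 to 22370786 over the 6 N2 libraries. The targeted xpf-1 transcript had 213 to 304 reads in xpf-1 libraries and 1192 to 1758 in N2 libraries, with 1468 in N2 replicate 6. Ribosomal RNA took 5.51% and 5.70% of the counts in xpf-1 replicates 1 and 5 and 0.0445% in N2 replicate 5, against 1.82% to 3.15% in the other 9 libraries. The far results are therefore also given without those 3 libraries. Germline and oocyte markers were lower in xpf-1, with 22 of 24 called lower and 0 higher, where 29.6% of all tested genes were called lower. Their summed level was 5567 to 6366 CPM (counts scaled to the size of the library) in xpf-1 and 9369 to 10107 CPM in N2. In whole worms, fewer cells of a type and less RNA per cell cannot be told apart.

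The family sits in 3 single loci and 2 clusters, none of them on chromosome I or X, in the deposited coordinates on build WBcel235. far-1 (WBGene00001385, chromosome III, 9080367 to 9081179, minus strand) and far-2 (WBGene00001386, chromosome III, 9081679 to 9082890, plus strand) lie head to head, 499 bases apart. far-5 (WBGene00001389, 12995601 to 12996836, plus strand), far-3 (WBGene00001387, 12996818 to 12997524, minus strand) and far-4 (WBGene00001388, 12998425 to 12999659, minus strand) form the cluster on chromosome V. far-5 and far-3 run toward each other and their ends overlap by 19 bases, so reads in those bases cannot be assigned with certainty. far-4 lies 900 bases from far-3 on the same strand. far-6 (WBGene00001390, 13328359 to 13329319, plus strand) is on chromosome IV, far-7 (WBGene00001391, 319793 to 321107, plus strand) on chromosome II and far-8 (WBGene00001392, 842935 to 843803, plus strand) on chromosome III, far from far-1 and far-2.

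All 8 are short protein-coding genes. In the Ensembl annotation of the same build their longest coding sequences give proteins of 138 amino acids for far-7, 176 for far-5, 182 each for far-1 and far-2, 184 for far-6, 189 for far-3, 205 for far-4 and 232 for far-8. far-2, far-3, far-4, far-5 and far-6 have 2 exons, far-8 has 3, and far-1 and far-7 have 4. far-6 has a 3′ UTR of 351 bases, while those of the other 7 run from 61 to 102 bases. far-7 has 4 annotated transcripts and far-5 has 2, and the counts do not separate them.

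The members differed widely in abundance, and far-2 was the most abundant in both groups. Levels between genes were compared as TPM, in which each count is divided by the deposited gene length and scaled to the library. TPM is not adjusted between libraries as CPM is, so the size of a change between groups is to be read from the test below. far-2 stood at 8198 ± 242 TPM in xpf-1 and 5580 ± 256 TPM in N2 (SD, n = 6 each). It ranked 2 to 3 of all genes by TPM in the xpf-1 libraries and 5 to 10 in the N2 libraries. far-1 followed with 2491 ± 98.03 TPM in xpf-1 and 1922 ± 112 TPM in N2, and far-3 with 1439 ± 90.04 TPM in xpf-1 and 878 ± 98.99 TPM in N2. far-6 was lower, at 326 ± 19.05 TPM in xpf-1 and 249 ± 6.19 TPM in N2.

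The remaining members were minor transcripts. far-8 had 60.99 ± 6.77 TPM in xpf-1 and 33.2 ± 4.03 TPM in N2. far-7 had 38.4 ± 4.22 TPM in xpf-1 and 29.98 ± 3.96 TPM in N2. far-5 had 17.6 ± 1.54 TPM in xpf-1 and 23.1 ± 2.18 TPM in N2. far-4 was the scarcest in each group, with 2.48 ± 0.811 TPM in xpf-1 and 2.03 ± 0.768 TPM in N2.

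The order by mean TPM was far-2, far-1, far-3, far-6, far-8, far-7, far-5 and far-4 in both groups. In xpf-1 no neighbours in that order overlapped over the 6 libraries, and in N2 only far-8 and far-7 did. The order of the minor members depends on the length used. The authors' FPKM values match the deposited length for far-3, far-4, far-6 and far-8. They imply shorter lengths for far-1 (456 in place of 657 bases), far-2 (666 in place of 771), far-5 (506 in place of 623) and far-7 (527 in place of 692). By those FPKM values far-7 stands above far-8 in N2, and far-8 also overlaps far-5 there, while in xpf-1 far-8 and far-7 overlap.

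**Figure D1:**
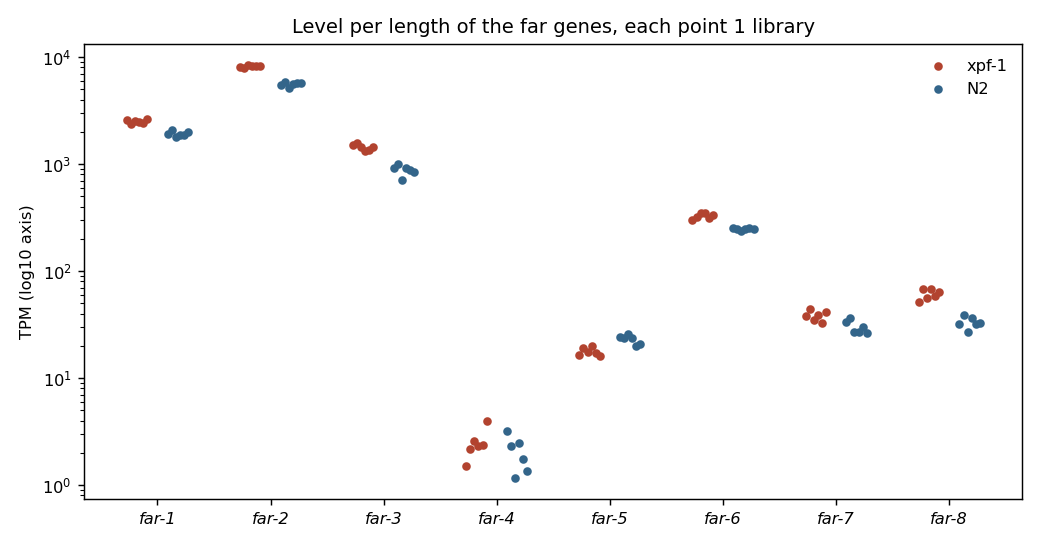
Level of each far gene in TPM on a log10 axis, with 1 point per library, xpf-1 in red to the left of N2 in blue. far-2 lies highest, near 8198 TPM in xpf-1 and 5580 TPM in N2 on average, and far-4 lowest, near 2.48 TPM in xpf-1 and 2.03 TPM in N2.

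The comparison of xpf-1 with N2 asked which far transcripts differ in the DNA repair mutant. Of the 8 genes, all of which passed the low-count filter, far-1, far-2, far-3, far-6 and far-8 were higher in xpf-1, far-5 was lower, and far-4 and far-7 did not pass an adjusted p of 0.05. Of all 14248 genes tested, 59.7% were called, 30.1% as higher and 29.6% as lower, so 6 of 8 called is near the background of this comparison. The changes were moderate: the median log2 fold of the 8 was 0.23, against 0.03 over all tested genes, and they ran from -0.53 for far-5 to 0.73 for far-8. Groups did not overlap for far-2, far-3, far-5 and far-8, and they did for the other 4; over all tested genes 38.2% had groups that did not overlap. Against a change of 1.5-fold in place of none, 0 of the 8 passed edgeR's test, with an adjusted p of 0.129 for far-8 and of 1 for the other called genes, so the size of each change beyond 1.5-fold is not shown. At an unadjusted p under 0.05 in the test of any change, far-7 joins the 6 called genes.

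**Figure D2:**
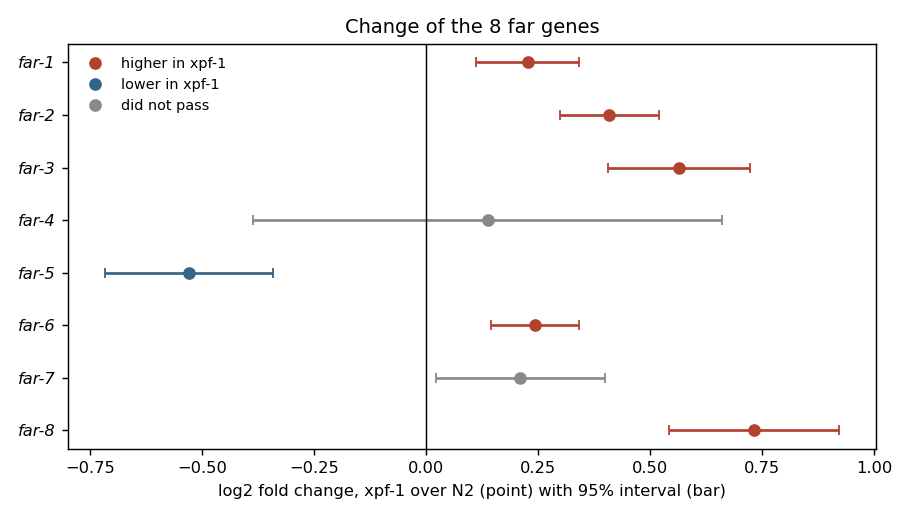
Log2 change in xpf-1 relative to N2 for the 8 far genes, far-1 at the top, as points with approximate 95% intervals derived from edgeR's test. The intervals of the 5 genes called higher lie above 0, that of far-7 begins at 0.02, that of far-5 lies below it (-0.72 to -0.34), and that of far-4 spans it (-0.39 to 0.66).

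The head-to-head pair carried most of the family's reads. far-2 had 5637, 5915 and 6008 CPM as lowest, median and highest of the xpf-1 libraries, and 3999, 4349 and 5019 CPM in N2. Every xpf-1 library lay above every N2 library. far-2 rose 1.33-fold in xpf-1 (95% interval 1.23 to 1.43), a log2 change of 0.41 ± 0.05 (SE, edgeR adjusted p = 9.23e-08). far-1 had 1441, 1515 and 1574 CPM in xpf-1 as lowest, median and highest, and 1180, 1261 and 1531 CPM in N2. Here the groups overlapped through N2 replicate 2 alone, at 1531 CPM, and 2 of 6 xpf-1 libraries lay above it. far-1 rose 1.17-fold (1.08 to 1.27), a log2 change of 0.23 ± 0.06 (edgeR adjusted p = 0.000881). In replicates 1 to 3 alone far-1 did not pass (log2 fold 0.18, edgeR adjusted p 0.152).

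Of the genes on either side of this pair, 1 fell and 1 did not pass. The nearest protein-coding gene beyond far-2 is mrpl-44, a mitochondrial ribosomal protein gene by its name, which fell to 117 ± 3.63 CPM in xpf-1, against 127 ± 9.01 CPM in N2 (log2 fold -0.12 ± 0.05, edgeR adjusted p = 0.0368). On the far-1 side F02A9.1 had 1.42 ± 0.427 CPM in xpf-1 and 0.939 ± 0.397 CPM in N2 and did not pass (edgeR adjusted p = 0.064).

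In the chromosome V cluster far-3 rose, far-5 fell and far-4 did not pass. far-3 had 793, 849 and 949 CPM as lowest, median and highest in xpf-1, and 459.98, 576 and 714 CPM in N2. All 6 xpf-1 libraries exceeded all 6 N2 libraries. far-3 rose 1.48-fold (1.33 to 1.65), a log2 change of 0.56 ± 0.08 (edgeR adjusted p = 1.79e-06). far-5, its convergent neighbour, had 9.24, 9.98 and 11.6 CPM in xpf-1 as lowest, median and highest, and 12.3, 15.1 and 16.5 CPM in N2. All 6 xpf-1 libraries lay below all 6 N2 libraries, on 183 to 238 reads in xpf-1 and 252 to 337 reads in N2. far-5 fell to 0.692 of the N2 level (0.608 to 0.789), a log2 change of -0.53 ± 0.09 (edgeR adjusted p = 8.7e-06).

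The third gene of the cluster was scarce. far-4 had 0.986, 1.55 and 2.59 CPM as lowest, median and highest in xpf-1, and 0.833, 1.5 and 2.32 CPM in N2. These values rest on 21 to 61 reads per library in xpf-1 and 16 to 51 reads in N2. The groups overlapped over nearly their whole range. The log2 fold of far-4 was 0.14 ± 0.26, with an interval of -0.39 to 0.66 and an edgeR adjusted p of 0.669, so a change as large as that of far-3 lies within its interval. Outside the cluster inft-2, a formin gene by its name and the nearest gene beyond far-4, stood at 53.3 ± 5.62 CPM in xpf-1 and 50.7 ± 4.61 CPM in N2 (edgeR adjusted p = 0.365). On the far-5 side dsl-7, named for the DSL family of Notch ligands, had 56 reads over the 12 libraries and was not tested.

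Among the single genes far-8 changed most. It had 36.6, 44.2 and 49.5 CPM as lowest, median and highest in xpf-1, and 21.2, 25.5 and 33.2 CPM in N2. The groups did not overlap. far-8 rose 1.66-fold (1.46 to 1.90), a log2 change of 0.73 ± 0.09 (edgeR adjusted p = 3.67e-07), and 11.1% of all tested genes had a higher log2 fold. Its flanking gene K02F3.9 fell to 21.4 ± 2.58 CPM in xpf-1, against 40.9 ± 4.04 CPM in N2, with an edgeR adjusted p of 4.9e-12. K02F3.2, on the other side, rose to 43.1 ± 3.43 CPM in xpf-1, against 38.3 ± 3.22 CPM in N2, with an edgeR adjusted p of 0.0293. far-8 thus lay between a gene that fell and one that rose by less.

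far-6 had 248, 274 and 293 CPM as lowest, median and highest in xpf-1, and 219, 231 and 253 CPM in N2. In far-6, 5 of the 6 xpf-1 libraries lay above all N2 libraries, and xpf-1 replicate 1 lay within the N2 range. far-6 rose 1.18-fold (1.11 to 1.27), a log2 change of 0.24 ± 0.05 (edgeR adjusted p = 5.63e-05). In replicates 1 to 3 alone it did not pass (log2 fold 0.20, edgeR adjusted p 0.0621). far-6 lies 1964 bases from fat-2, a desaturase that acts on oleic acid, on the same strand. fat-2 rose to 2078 ± 79.8 CPM in xpf-1, against 1839 ± 116 CPM in N2, a log2 change of 0.18 ± 0.05 (edgeR adjusted p = 0.00447). On the other side of far-6, pqn-74 had 42 reads over all libraries.

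far-7, whose protein is the shortest of the family, had 21.5, 24.6 and 28.7 CPM as lowest, median and highest in xpf-1, and 18.5, 19.7 and 27.8 CPM in N2. The ranges overlapped, and the highest N2 library was again replicate 2. Its log2 fold was 0.21 ± 0.09 with an interval of 0.02 to 0.40, an unadjusted p of 0.0306 and an edgeR adjusted p of 0.051. Without N2 replicate 2 the log2 fold was 0.30 with an edgeR adjusted p of 0.00158. The call was likewise gained on leaving out xpf-1 replicate 1, 3 or 5 (edgeR adjusted p = 0.0471, 0.0361 and 0.0255 in that order) or N2 replicate 1 (0.0441). Over all alternatives other than the test against 1.5-fold, the adjusted p ran from 0.0012 to 0.578. K01A2.10, the neighbour 334 bases away, rose to 17.1 ± 0.900 CPM in xpf-1, against 14.3 ± 1.002 CPM in N2 (edgeR adjusted p = 0.00441). K01A2.9, on the other side, had 0 reads in all libraries.

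**Figure D3:**
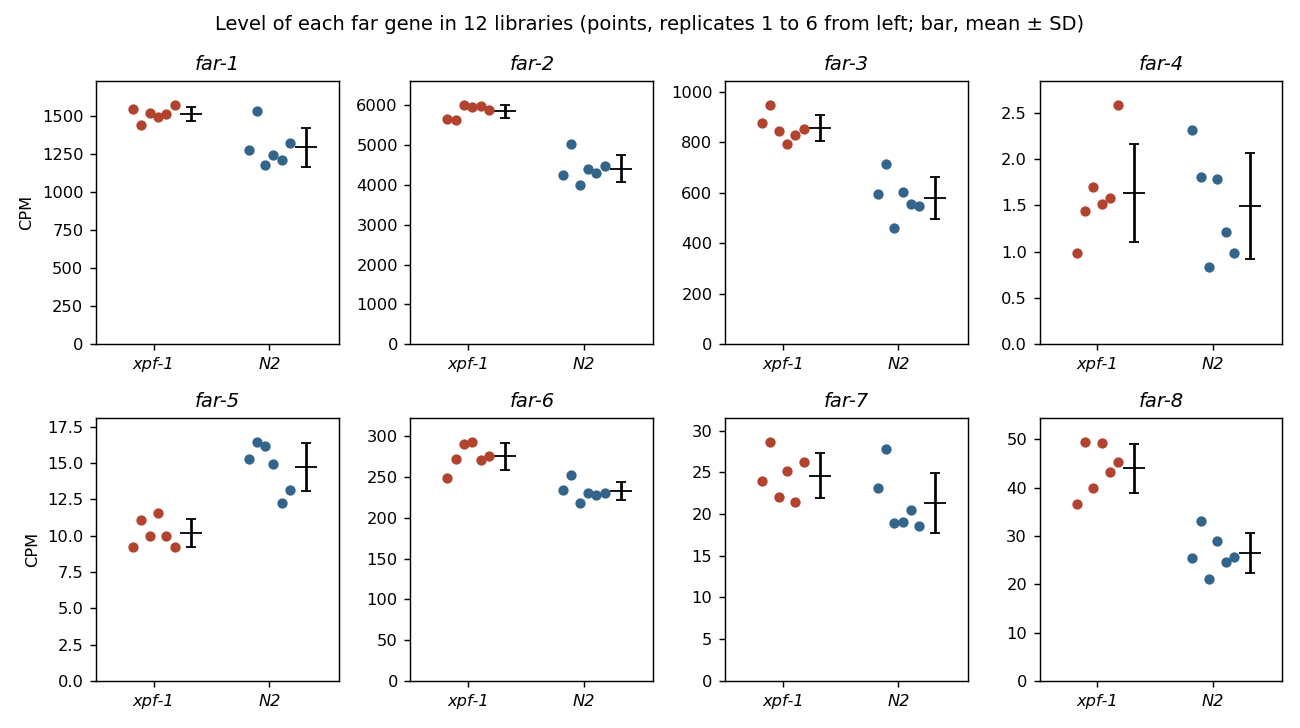
CPM of each far gene in every library, 1 panel per gene with its own axis from 0, xpf-1 in red to the left of N2 in blue, replicates in number order, and mean ± SD as a black bar. far-2, far-3 and far-8 show no overlap with xpf-1 above, far-5 shows none with xpf-1 below, and N2 replicate 2 is the highest N2 point in 7 of the 8 panels.

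As a family, the far genes took a larger share of the reads in xpf-1. They held 0.836% to 0.907% of all counts in xpf-1 libraries, with a median of 0.879%, and 0.571% to 0.719% in N2 libraries, with a median of 0.640%. The groups did not overlap; no test was run on this sum over chosen genes. The summed level was 8577 ± 151 CPM in xpf-1 and 6577 ± 558 CPM in N2 (SD, n = 6 each), a difference of 1999.5 CPM. far-2 made up 72.2% of that difference, far-3 13.9% and far-1 11%. Within the family's reads far-1 and far-2 together held 84.4% to 86.4% in xpf-1 and 86.1% to 87.6% in N2.

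Spread within groups was partly shared. N2 replicate 2 had the highest N2 value for 7 of the 8 genes, all but far-4, and N2 replicate 3 the lowest for 6 of the 8, all but far-5 and far-7. In xpf-1 no library was highest for more than 3 genes. The coefficient of variation was highest for far-4, at 32.2% in xpf-1 and 38.3% in N2, and ran from 2.86% to 16.9% over the other 7 genes. Without the 3 libraries with outlying rRNA shares, a choice made after seeing the data, the same numbers of far genes were called, 5 higher and 1 lower. Without those libraries the log2 folds were 0.40 for far-2, 0.55 for far-3, 0.77 for far-8 and -0.54 for far-5.

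Whether members of a locus changed to the same degree was asked with the ratio of a pair within each library, on log2(CPM + 0.5). A total of 5 pairs was compared by a two-sided exact permutation test over the 12 libraries, whose smallest possible p is 0.00216, with adjustment over the 5 pairs. The ratio of far-2 to far-1 was 1.95 ± 0.05 in xpf-1 and 1.77 ± 0.05 in N2 (log2, SD, n = 6 each). Its mean was 0.18 ± 0.03 (SE) higher in xpf-1, with an exact permutation p of 0.00216 and an adjusted p of 0.00361. All 6 xpf-1 libraries lay above every N2 library. far-2 thus rose more than its head-to-head neighbour far-1.

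Of the 5 pairs the convergent genes differed most. far-3 over far-5 stood at 6.33 ± 0.16 in xpf-1 and 5.25 ± 0.24 in N2 (log2), a difference of 1.08 ± 0.12 with no overlap, an exact permutation p of 0.00216 and an adjusted p of 0.00361. far-4 over far-5 was -2.35 ± 0.38 in xpf-1 and -2.98 ± 0.40 in N2, a difference of 0.62 ± 0.23 with overlapping groups, an exact permutation p of 0.013 and an adjusted p of 0.0162. far-3 over far-4 was 8.68 ± 0.37 in xpf-1 and 8.23 ± 0.29 in N2, a difference of 0.46 ± 0.19, with an exact permutation p and an adjusted p of 0.039. That last call was lost with a pseudocount of 0.1 in place of 0.5 (exact permutation, adjusted p = 0.132) and on leaving out any 1 of xpf-1 replicates 1 to 5 or N2 replicates 1, 2 and 4 (adjusted p 0.0541 to 0.0844). The pair far-8 over far-7 is unlinked, so it does not bear on members of a locus. Like the other pairs it was chosen with earlier results of these data known. Its ratio was 0.82 ± 0.14 in xpf-1 and 0.31 ± 0.18 in N2, a difference of 0.51 ± 0.09 with no overlap. The exact permutation p was 0.00216 and the adjusted p 0.00361.

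**Figure D4:**
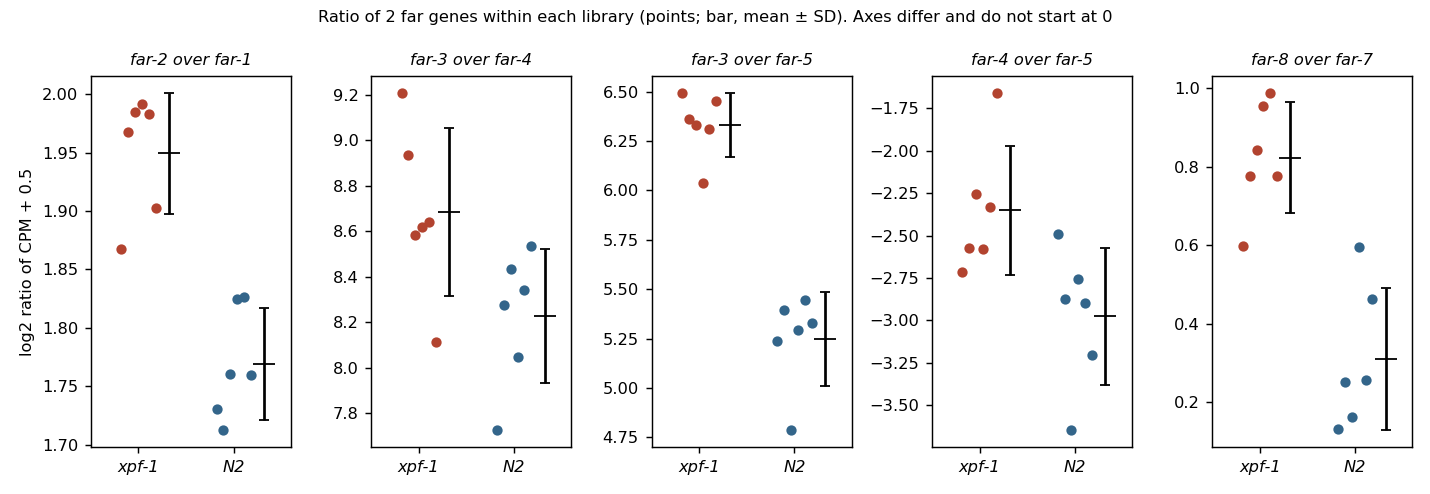
Log2 ratio of 2 far genes within each library for the 5 pairs, xpf-1 in red to the left of N2 in blue, with mean ± SD as a black bar; axes differ and do not start at 0. The groups do not overlap for far-2 over far-1, far-3 over far-5 and far-8 over far-7, and they overlap for both pairs that include far-4.

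Genes with the most similar profile were looked for among 8159 protein-coding genes of at least 10 CPM, by the root mean square difference of log2(CPM + 0.5), each gene centred on its own mean, over the 12 libraries. Among the members themselves far-1 and far-6 were closest, at 0.083 log2 units, then far-2 and far-6 at 0.0998 and far-1 and far-2 at 0.101. Outside the family far-6 was nearest to sup-36, at 0.0286, and to ttr-5, a transthyretin-like gene, at 0.0414. far-2 was nearest to D1054.10 at 0.0531, which rose to 1961 ± 102 CPM in xpf-1, against 1425 ± 80.3 CPM in N2, and to F17E9.4 at 0.054. far-1 was nearest to F30A10.9 at 0.0537 and the linker histone gene hil-2 at 0.057. far-3 was nearest to C17H12.11 at 0.0838 and W04B5.1 at 0.0893, and far-5, the member that fell, to moa-2 at 0.0709 and C09E9.1 at 0.0723. far-7 was nearest to C06B3.6 at 0.0723 and drr-1 at 0.0839. far-8 had the most distant nearest genes, Y37H2A.13 at 0.103 and oat-1, an organic anion transporter by its name, at 0.113. The median distance to all candidates ran from 0.232 log2 units for far-6 to 0.449 for far-8. The larger nearest distances of far-8 thus go with a larger distance to all candidates.

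Other lipid carriers changed in both directions beside the far genes, against 30.1% of all tested genes called higher, 29.6% lower and a median log2 change of 0.03. Of the 9 lbp genes, which encode beta-barrel fatty acid binding proteins, 5 rose and 2 fell, the list's median log2 change being 0.33. lbp-1, one of the members that carry a secretion signal, rose to 675 ± 37.99 CPM in xpf-1, against 466.1 ± 36.9 CPM in N2, and lbp-9 fell to 258 ± 21.6 CPM in xpf-1, against 466.4 ± 33.2 CPM in N2. Of 6 acyl-CoA binding protein genes, 1 rose and 2 fell, the list's median log2 change being -0.22. acbp-5 fell to 59.3 ± 1.68 CPM in xpf-1, against 88.3 ± 2.62 CPM in N2.

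Of the 11 yolk protein and yolk lipid transport genes, 7 rose and 1 fell, the list's median log2 change being 0.38. The gene that fell was rme-2, the yolk receptor of oocytes, which had 79.5 ± 9.37 CPM in xpf-1 and 187 ± 12.002 CPM in N2. The yolk protein gene vit-3 rose to 80.3 ± 24.8 CPM in xpf-1, against 9.69 ± 1.32 CPM in N2. More abundant yolk protein genes changed less. vit-2 rose by 0.83 log2 units and vit-6 by 0.74. vit-5, the most abundant, had 4441 ± 1323 CPM in xpf-1 and 3420 ± 417 CPM in N2 and did not pass (edgeR adjusted p = 0.0849). The list's summed levels overlapped, at 9386 to 19568 CPM in xpf-1 and 6983 to 9866 CPM in N2. As given above, 22 of the 24 germline and oocyte markers, a list that does not hold rme-2, were lower in xpf-1, and their part in the yolk and far results was not tested. Of 7 lipocalin-related lpr genes 5 had enough counts, and 3 of these rose and 0 fell, the median log2 change of the tested genes being 2.69. Among the 3 that rose, lpr-5 had 4 to 7 reads per library in N2 and lpr-6 had 5 to 17. lpr-5 passed the low-count filter through xpf-1 alone, so that median rests partly on genes near the floor in N2. lpr-3 rose to 25.5 ± 2.29 CPM in xpf-1, against 3.41 ± 0.581 CPM in N2. lpr-3 belongs also to the molting list of 12 genes. Of its 11 tested genes 10 rose, lpr-3 among them, where 30.1% of all tested genes were called higher. The summed level of the molting list was 239.6 to 264 CPM in xpf-1 and 98.3 to 107 CPM in N2. One of the 10, mlt-11, had only 9 to 39 reads per library in N2.

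Of 6 scav genes, which encode scavenger receptors related to CD36, 1 rose and 1 fell, the list's median log2 change being 0.03. Of 7 genes of sterol carriers, fatty acid uptake and lipoprotein receptors, 4 rose and 0 fell, the list's median log2 change being 0.19. The 3 that did not pass were the sterol carrier genes ncr-1, ncr-2 and heh-1. Among the 4 that rose, acs-22, a fatty acid transport protein homologue, had 48.8 ± 2.97 CPM in xpf-1, against 35.2 ± 2.70 CPM in N2. For the carotenoid side, bcmo-2, a beta-carotene oxygenase homologue of the retinoid pathway, had 5.93 ± 0.622 CPM in xpf-1 and 6.08 ± 0.705 CPM in N2 and did not pass (edgeR adjusted p = 0.822). Its relative bcmo-1 had 3 to 16 reads in xpf-1 and 6 to 17 reads in N2 and was not tested. Of 9 genes of fatty acid synthesis and desaturation, which supply possible ligands, 4 rose and 0 fell, the list's median log2 change being 0.18. fasn-1, which encodes fatty acid synthase, rose by 1.67 ± 0.08 log2 units (edgeR adjusted p = 2.59e-12).

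**Figure D5:**
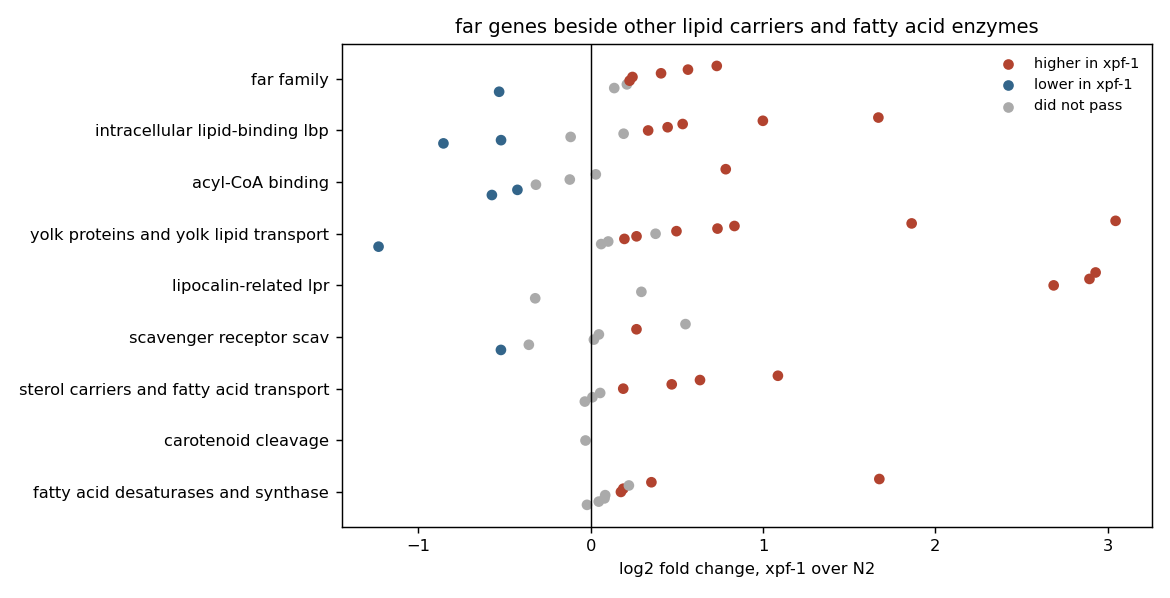
Log2 change in xpf-1 relative to N2 for every tested member of the far family and of 8 other lists of lipid carriers and fatty acid genes, red for higher, blue for lower and grey for genes that did not pass edgeR's test. far log2 folds run from -0.53 to 0.73, inside the range of the lbp genes, while lpr-3 of the lipocalin list stands at 2.89.

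Marker lists of tissues moved in several directions beside the far genes, and their part in the far results was not tested. Of all tested genes 59.7% were called, so 8 of 12 intestinal markers and 9 of 12 body wall muscle markers called are near that background. Of 12 intestinal markers 3 rose and 5 fell, with summed levels of 992 to 1454 CPM in xpf-1 and 1397 to 1595 CPM in N2. Of 6 tested hypodermal markers out of 12, 3 rose and 2 fell, with 345 to 364 CPM in xpf-1 and 367 to 403 CPM in N2. The list's median log2 change was 0.58 although its sum was lower in xpf-1. One of the 3 that rose, dpy-7, had 0 to 3 reads in N2 and passed the low-count filter through xpf-1 alone. Its log2 fold of 4.13 enters that median. elt-1, a GATA factor of the epidermis, rose to 51.04 ± 3.78 CPM in xpf-1, against 23.1 ± 2.47 CPM in N2. The cuticle collagen gene sqt-3 rose to 10.5 ± 1.05 CPM in xpf-1, against 3.20 ± 0.592 CPM in N2. By contrast col-19, the most abundant of the list, fell to 205 ± 14.5 CPM in xpf-1, against 254 ± 19.4 CPM in N2. Likewise lin-26 fell to 77.8 ± 8.61 CPM in xpf-1, against 95.7 ± 7.79 CPM in N2, and elt-3 did not pass. The 6 untested hypodermal markers had at most 11 reads in any library. Of 12 body wall muscle markers 4 rose and 5 fell, with 839 to 947 CPM in xpf-1 and 937 to 1135 CPM in N2. Of 12 neuronal markers 3 rose and 1 fell, with 481 to 504 CPM in xpf-1 and 459.6 to 495 CPM in N2. Of 6 tested pharyngeal markers out of 9, 3 rose and 1 fell, with 38.1 to 46.01 CPM in xpf-1 and 37.3 to 44.9 CPM in N2. All 3 coelomocyte markers were tested, and 2 fell, with 16.1 to 17.9 CPM in xpf-1 and 24.04 to 26.9 CPM in N2; these cells take up proteins from the body fluid. Of 26 sperm markers 8 were tested and 1 rose, with 5.92 to 15.1 CPM in xpf-1 and 1.45 to 13.95 CPM in N2. Of the 12 mitochondrially encoded genes 4 fell and 0 rose, where 29.6% of all tested genes were called lower. Some of the others varied widely within N2, so their tests were imprecise. MTCE.26 ran from 147 to 8107 CPM in N2 (SE of its log2 fold 0.61), and MTCE.31 from 37.6 to 2623 CPM (SE 0.64). The share of mitochondrial counts was 1.56% to 1.95% in xpf-1 and 1.80% to 2.45% in 5 N2 libraries. N2 replicate 5, which also had the lowest rRNA share, stood apart from these at 0.884%.

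Of the far genes, 6 have in the authors' deposited table an adjusted p under 0.05, the same 6 as here, and all 8 log2 folds have the same sign as here. Those log2 folds are 0.21 for far-1, 0.39 for far-2, 0.55 for far-3, -0.53 for far-5, 0.23 for far-6 and 0.70 for far-8 in the authors' deposited table.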

How the data were processed

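The submitters' processing notes name build WBcel235 and the tools CASAVA, HISAT2 2.1.0 and featureCounts 1.5.0-p3. They state neither a strand setting nor an annotation release. The deposited table holds raw read counts per gene. Per the file headers it also holds FPKM, the counts after division by a library's size factor (a signal on the scale of counts), and the authors' own log2 fold change with its p-value and adjusted p-value. Other deposited columns give the gene length in bases and coordinates. The test was edgeR's (version 4.0.16, under R 4.3.3) on the deposited counts: filterByExpr, TMM factors, quasi-likelihood test with robust dispersion, xpf-1 against N2, all genes in the fit, Benjamini-Hochberg adjustment over the 14248 tested genes and a threshold of 0.05. CPM uses TMM-adjusted library sizes. TPM, computed from counts and deposited lengths without TMM, serves to compare levels between genes. Differences in TPM between groups were not tested. The test was checked on simulated data, with 14248 genes in the comparison of xpf-1 with N2: 21 of 50 genes changed 1.25-fold and 33 of 50 changed 1.5-fold were recovered, and 7 of 151 calls over all simulated folds were false. Only 50 genes were changed at each fold of 1.25, 1.5, 2 and 4, a far smaller share than the 59.7% called in the data. These rates therefore need not hold for the real comparison. The SE of an edgeR log2 change was derived from the test, as the absolute change divided by the square root of its F statistic. The 95% intervals extend from the log2 change by this SE times a t quantile, so they are approximate.

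Named genes are the far genes, xpf-1, flanking and overlapping genes, the 2 nearest profiles per far gene of at least 10 CPM, and up to 2 genes per list with the smallest adjusted p. Further list members are named where their counts, spread or direction limit a list's result. Members, lists and tests were chosen with earlier results of these data known. Alternatives were DESeq2 1.42.0, limma-voom (limma 3.58.1), other scalings, filters, thresholds and sample sets, and removal of a gene-length trend. No sequences are shown, since no sequence file was used here.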

Additional observations from a re-analysis of the deposited data

Results flagged for a closer look

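The within-library log2 ratio of far-3 to far-5 stood apart in 1 N2 library. N2 replicate 3 had a ratio of 4.79, and the gap to the next library was 0.683 of the range of the 6 N2 libraries, above Dixon's critical value for 6 samples. That library had 460.0 CPM of far-3, the lowest of the N2 libraries, and 16.2 CPM of far-5. Without it the difference between xpf-1 and N2 in this ratio was 0.99 log2 units (exact permutation, adjusted p = 0.00722), against 1.08 with it. In all 28 sets of 6 values were examined in this way and 1 stood apart, where chance alone sets apart about 1 in 20.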

How the results depend on the processing

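far-2, far-3, far-5 and far-8 kept their direction and call in 27 of 28 alternatives each, the exception being the test against a 1.5-fold change. In that test the log2 folds stay at 0.23 for far-1, 0.41 for far-2, 0.56 for far-3, -0.53 for far-5, 0.24 for far-6 and 0.73 for far-8, and 0 far genes were called in either direction, as were only 980 genes higher and 663 lower of all tested, against 4291 and 4218. In replicates 1 to 3 alone far-1 (0.18) and far-6 (0.20) did not pass, which left 3 called higher on fewer samples. far-7 passed with RLE size factors (0.21), library totals (0.28), upper quartile factors (0.28), limma-voom (0.22), at least 5 CPM in 6 libraries (0.26), replicates 4 to 6 (0.34), the length trend removed (0.29) and, chosen after seeing the data, rRNA and mitochondrial genes left out (0.22); leaving out 1 library gave 0.16 to 0.30. far-4 changed sign without passing in replicates 1 to 3 (-0.27) and when N2 replicate 6 was moved to the mutants (-0.049), and ran from -0.0499 (without xpf-1 replicate 6) to 0.31 on leaving out 1 library; the filter at 5 CPM removed it. The cause was not tested. far-3 over far-4 lost its call with a pseudocount of 0.1 (0.42) and ran from 0.35 to 0.57 on leaving out 1 library. By the authors' FPKM the log2 levels over far-2 in N2 were -1.22 for far-1, -2.89 for far-3, -4.70 for far-6, -7.37 for far-7 and -7.61 for far-8, against -1.54, -2.68, -4.49, -7.55 and -7.40 by TPM, because the lengths differ. Same-numbered libraries showed little shared deviation (correlations of -0.0031 to 0.12, own number best for 2 of 6), which cannot exclude that the numbers pair samples. With the replicate block far-7 passed (0.22) and the other calls were as without the block. Depth limits far-4, at 16 to 61 reads per library.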
